A study of Mus musculus with 7 samples.

Results

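The clustered histone genes are the copies of the H1, H2A, H2B, H3 and H4 genes that lie together in the genome, and they were taken as the protein-coding genes whose GENCODE M21 mouse symbol begins with Hist1h, Hist2h, Hist3h or Hist4h. The reference holds 67 such genes, and counts were analysed for 65 of them, out of 46603 genes in the count tables. Hist1h2bm and Hist1h2bh entered only the searches of sequence. The 65 genes are 6 of type H1, 18 of H2A, 16 of H2B, 12 of H3 and 13 of H4. Of these, 52 belong to the Hist1 cluster on chromosome 13, 10 to Hist2 on chromosome 3, 2 to Hist3 on chromosome 11 and 1, Hist4h4, to Hist4 on chromosome 6.

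The RNA-seq libraries came from tumors that grew in Balb/c nude mice (female, aged 16 weeks) injected with mouse embryonic fibroblasts (MEFs), and both groups therefore carry the NM1 knockout of the parent cells. KO tumors came from MEFs in which NM1, the nuclear isoform of the Myo1c gene, was deleted with CRISPR/Cas9, and 3 pieces were sequenced. KO+NM1 tumors came from KO MEFs given back HA- and V5-tagged NM1 by lentivirus and grown from single clones under neomycin, and 4 pieces were sequenced. By the GEO labels each group is 1 tumor divided into pieces, whereas the methods speak of tumors, so the spread here is that between pieces and may hold no difference between mice. The comparison of KO with KO+NM1 asks how expression differs between these tumors. By the labels, a difference due to NM1 cannot be told apart from one of tumor, mouse or clone.

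Most histone protein is made while DNA is copied, when the clustered genes are transcribed together at nuclear bodies organised by Npat. Their mRNAs are unusual, because they have few or no introns and end in a short stem-loop, bound by Slbp, in place of a poly(A) tail. When replication stops these mRNAs are degraded quickly. Some clustered genes can also be read through to a later poly(A) site, which gives a polyadenylated mRNA that does not depend on the cell cycle in the same way. H2A, H2B, H3 and H4 form the core of the nucleosome, and H1 binds the linker DNA between nucleosomes. The kit was the NEBNext Ultra II RNA kit, and whether poly(A) RNA was selected or ribosomal RNA removed was not given in the sources used here. Histone mRNAs that end at the stem-loop are caught poorly by poly(A) selection.

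The stem-loop was searched in the annotated transcripts as GG at one end and CC at the other, with 2 free bases inside each and CTTTTNAG between, on the sense strand, within 200 bases after the stop codon. It was held by 44 of the 50 clustered histone genes whose annotation reaches far enough to search (88%), against 49 of 20793 protein-coding genes in all (0.236%). The elements of the genes that the comparison turned on follow, 5′ to 3′ on the sense strand with GRCm38 coordinates, with the stem-loop in capitals and the bases beside it in lower case. The first pair belongs to the genes that were higher in KO, and the others to genes that were lower.
Hist1h2ap, chr13:21833026-21833049, minus strand: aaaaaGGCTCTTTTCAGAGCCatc
Hist1h2ao, chr13:21810893-21810918, plus strand: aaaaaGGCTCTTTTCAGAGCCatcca
Hist1h1c, chr13:23739507-23739532, plus strand: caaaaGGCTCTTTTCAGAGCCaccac
Hist1h2be, chr13:23585526-23585551, minus strand: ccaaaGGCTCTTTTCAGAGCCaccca
Hist2h2ac, chr3:96220413-96220438, minus strand: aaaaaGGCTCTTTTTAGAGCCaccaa
Hist3h2a, chr11:58955167-58955192, plus strand: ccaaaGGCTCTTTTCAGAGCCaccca
Hist2h3c2, chr3:96238480-96238505, minus strand: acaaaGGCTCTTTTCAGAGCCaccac
Hist1h4h, chr13:23531453-23531478, plus strand: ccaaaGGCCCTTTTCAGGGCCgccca

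Genes that moved in opposite directions carried the same 16 letters, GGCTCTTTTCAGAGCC, in Hist1h2ap, Hist1h2ao, Hist1h1c, Hist1h2be, Hist3h2a and Hist2h3c2, and this form was found in 24 of the clustered histone genes with counts. How far the annotated transcript runs on after the element differed: 3 bases in Hist1h2ap and 31 in Hist1h2ao, but 840 in Hist1h1c, 1861 in Hist1h2be, 1643 in Hist3h2a and 377 in Hist2h3c2. Hist2h2ac, with 57 bases after its loop, and Hist1h4h, with 46, were lower in KO and end close to it. The annotated transcripts of Hist1h2bc and Hist2h2be, which were also lower, held no such element in the 200 bases after the stop. The genes also differed in how much of their sequence is shared with other genes. In the 2 that were higher 6.90% and 7.35% of the 75-base windows of the exons occur in no other annotated gene, against 37.4% to 100% in the 8 that were lower, and exons of both genes that were higher and of 3 of the 8 overlap another annotated gene.

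Total counts were between 24088309 and 28326568 per library, and the clustered histone genes took 1683 to 4341 of them, or 0.00605% to 0.0162%, so a floor of 3 counts corresponds to 0.0989 to 0.148 CPM, the count scaled to the TMM-adjusted size of its library. Myo1c, counted over all its isoforms, was at 302 ± 12.1 CPM (SD, n = 3) in KO and 408 ± 23.0 (SD, n = 4) in KO+NM1, a log2 fold change of -0.43 (SE 0.13, adjusted p = 0.0311, edgeR) with no overlap between the groups. This change was under the 2-fold threshold. In 16 other fits, described below, the log2 fold change of Myo1c ran from -0.59 to -0.25. It was weaker in 6 of them, and the highest adjusted p was 0.295. The counts do not separate NM1 from the other isoforms. Piece 01 of KO+NM1 stood apart from the other three: its summed B and plasma cell markers were at 4261 CPM, where those pieces were at 3.65 to 17.5 and the 3 KO pieces at 9.75 to 43.8. None of the 7 markers was called between the groups. The pieces also differed in the tissue they hold. All 9 tested skeletal muscle markers were higher in KO, at 2571 to 21274 CPM summed against 6.96 to 25.9, and all 10 white adipocyte markers were lower, at 51.5 to 215 CPM against 4582 to 34608. Of 8 macrophage markers 7 were higher in KO, 6 of 6 endothelial, 5 of 5 tested erythroid and 3 of 5 tested mammary markers were lower, and of 10 fibroblast markers 1 was higher and 4 lower. None of the 6 T cell and 4 tested keratinocyte markers was called, and Wap was at 0 in all KO pieces. The summed T cell markers were at 213 CPM in piece 01 of KO+NM1, 3.29 to 3.65 in its other pieces and 157 to 192 in KO. The summed macrophage markers were at 2449, 581 to 801 and 3137 to 3594 CPM in the same order. Over all genes tested 17.1% were called higher in KO and 20.3% lower. Mitochondrial genes took 1.81% to 2.14% of the counts in KO and 5.11% to 18.5% in KO+NM1, with no overlap. With them left out of the library size, the clustered histone genes called were again 2 higher and 8 lower. The part of the other cells in the histone values was not tested. In such bulk samples fewer cells of a type cannot be told apart from less RNA per cell.

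**Figure D1:**
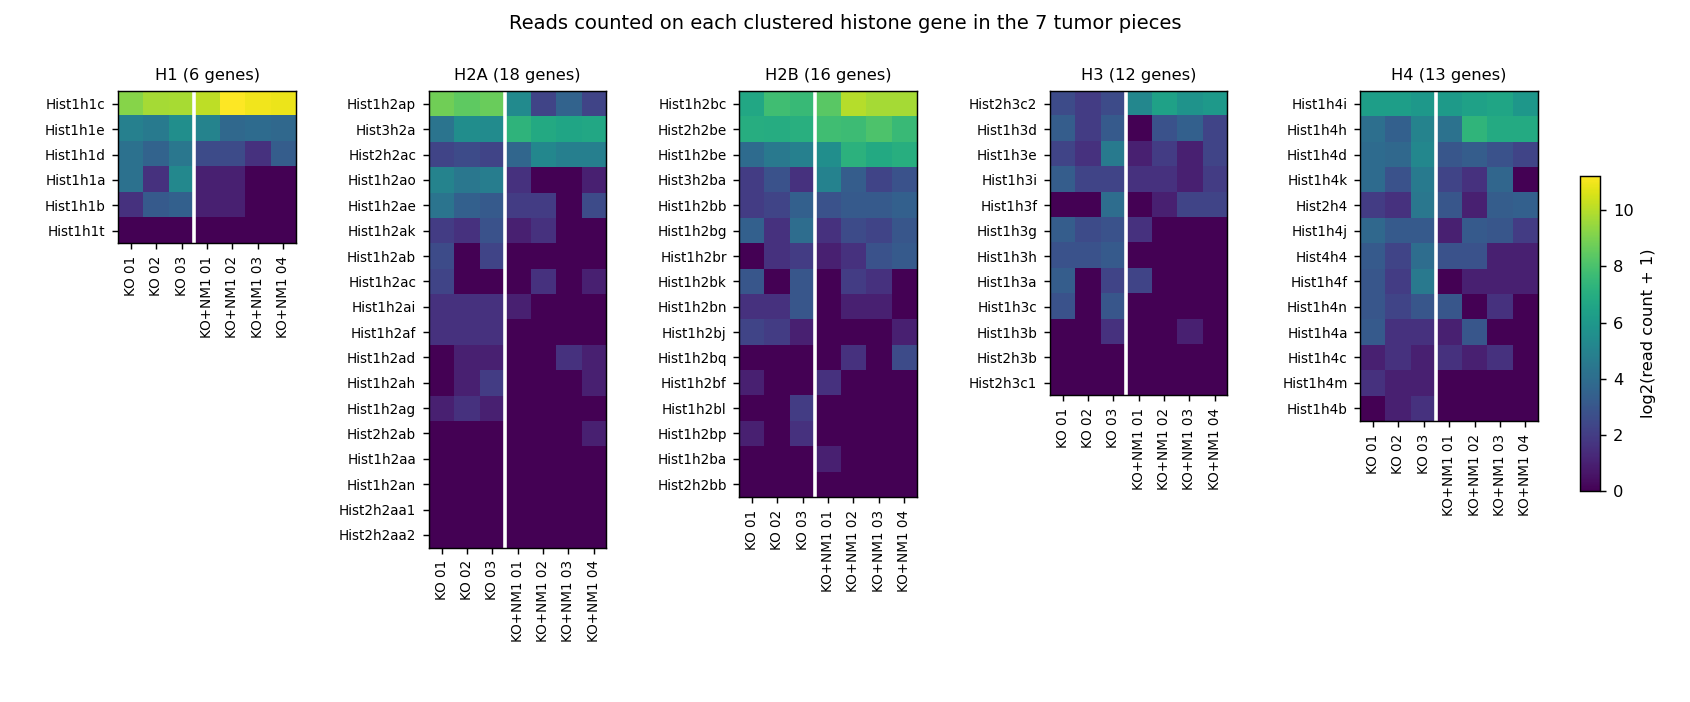
Reads on each of the 65 clustered histone genes in the 3 KO and 4 KO+NM1 tumor pieces, as log2(read count + 1), one panel per histone type with the genes ordered by total count and a white line between the groups. Few genes of each type hold most of the reads, and 8 genes were at 0 in all 7 pieces.

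The clustered histone genes did not move as one group between the tumors. Of the 65 genes, 15 passed the filter on low counts, and 2 of these were higher in KO (adjusted p under 0.05 and at least 2-fold, edgeR) while 8 were lower. Over all 16887 genes tested, 17.1% were higher and 20.3% lower. Both genes that were higher, Hist1h2ap and Hist1h2ao, encode H2A. The 8 that were lower were Hist2h3c2, Hist2h2ac, Hist1h4h, Hist1h2be, Hist1h2bc, Hist3h2a, Hist1h1c and Hist2h2be, which cover every histone type and 3 of the 4 clusters. In the KO and KO+NM1 pieces 4 of the 15 genes did not overlap with KO higher (30.5% of all tested genes) and 7 did not overlap with KO lower (26.4%). A gene with few reads could pass the filter only where 1 group was high, so these counts describe the 15 genes and not the 65.

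**Figure D2:**
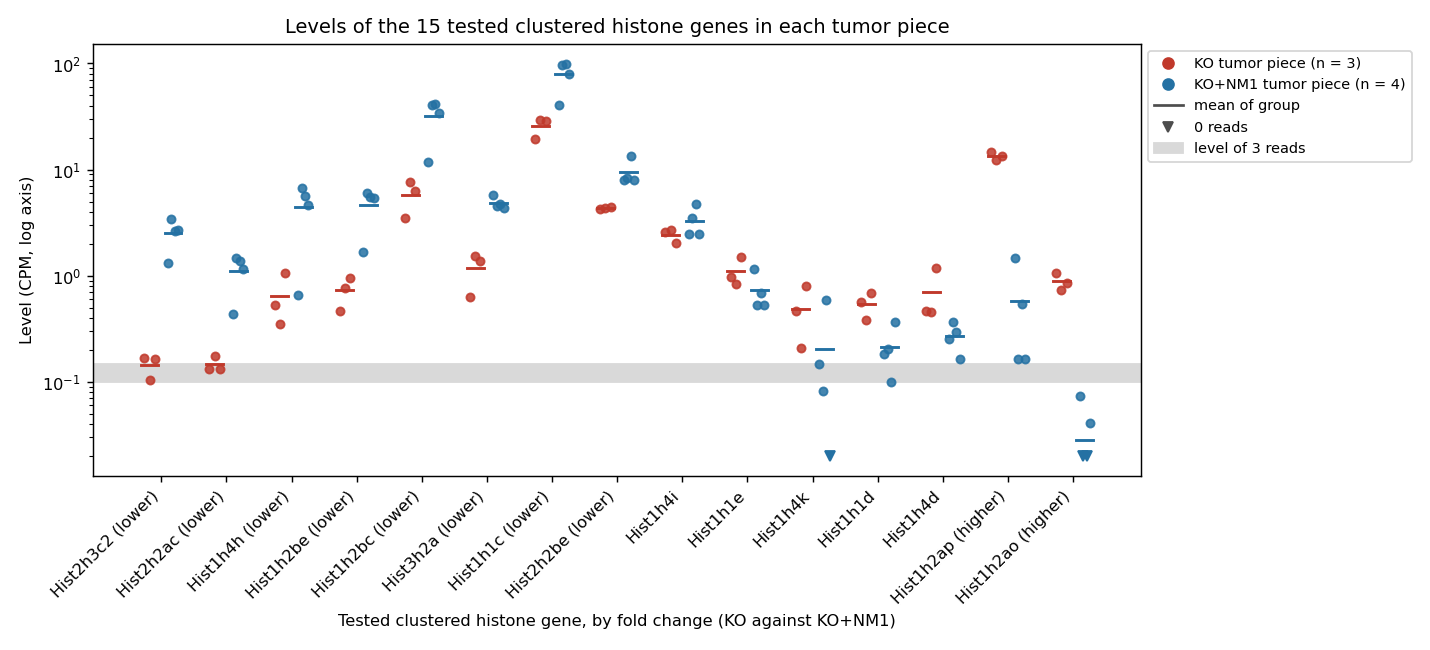
Level of each of the 15 tested clustered histone genes in every piece, in CPM on a log axis, with the group means as bars, pieces with 0 reads as triangles and the level of 3 reads as a grey band. Hist1h2ap and Hist1h2ao lie higher in all KO pieces, and 7 of the 8 genes called lower lie lower in all of them, Hist1h4h being the exception.

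Summed over all 65 genes, the level was 64.5 ± 8.40 CPM in KO (SD, n = 3) and 147 ± 48.0 CPM in KO+NM1 (SD, n = 4), or 2.27-fold lower in KO. The KO pieces were at 56.0, 64.8 and 72.8 CPM and the KO+NM1 pieces at 79.0, 176, 185 and 146 CPM. The groups did not overlap, and piece 01 of KO+NM1 was nearest to KO, so that without it the difference was 2.62-fold. No test was made on this sum. It rests largely on Hist1h1c, which took 39.6 ± 5.17% of all clustered histone reads in KO and 53.6 ± 1.67% in KO+NM1, and without Hist1h1c the groups overlapped, at 38.8 ± 4.71 against 67.5 ± 20.7 CPM. With the most counted gene of each type left out, the log2 ratio of the summed reads went from -1.18 to -0.77.

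By type, the sums of H1 and H2B were lower in KO in every piece, at 28.2 ± 5.79 against 80.1 ± 27.1 CPM for H1 (2.84-fold) and 12.0 ± 2.39 against 47.6 ± 17.1 CPM for H2B (3.97-fold). The H2A sum was higher in every KO piece, at 16.6 ± 1.19 against 6.79 ± 0.806 CPM (2.44-fold), but with the H2A pseudogene Hist1h2al added it was at 17.99 ± 1.03 against 23.9 ± 6.92 CPM and the groups overlapped. The groups overlapped for H3, at 1.80 ± 0.956 against 3.08 ± 0.995 CPM, and for H4, at 5.99 ± 1.56 against 9.06 ± 3.65 CPM. For 3 types the direction was that of 1 gene. Without Hist1h1c the other 5 H1 genes summed to 2.49 ± 1.14 CPM in KO and 0.981 ± 0.298 CPM in KO+NM1, higher in KO with no overlap. Without Hist1h2ap the other 17 H2A genes summed to 3.14 ± 0.116 against 6.21 ± 0.244 CPM, lower in KO with no overlap. Without Hist2h3c2 the other 11 H3 genes were at 1.65 ± 0.925 against 0.567 ± 0.216 CPM, and the groups overlapped. Only H2B and H4 kept their direction, H2B at 6.18 ± 0.764 against 15.5 ± 3.65 CPM without Hist1h2bc and H4 at 3.56 ± 1.89 against 5.77 ± 2.80 CPM without Hist1h4i. These sums with or without 1 gene were chosen after the values were seen.

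**Figure D3:**
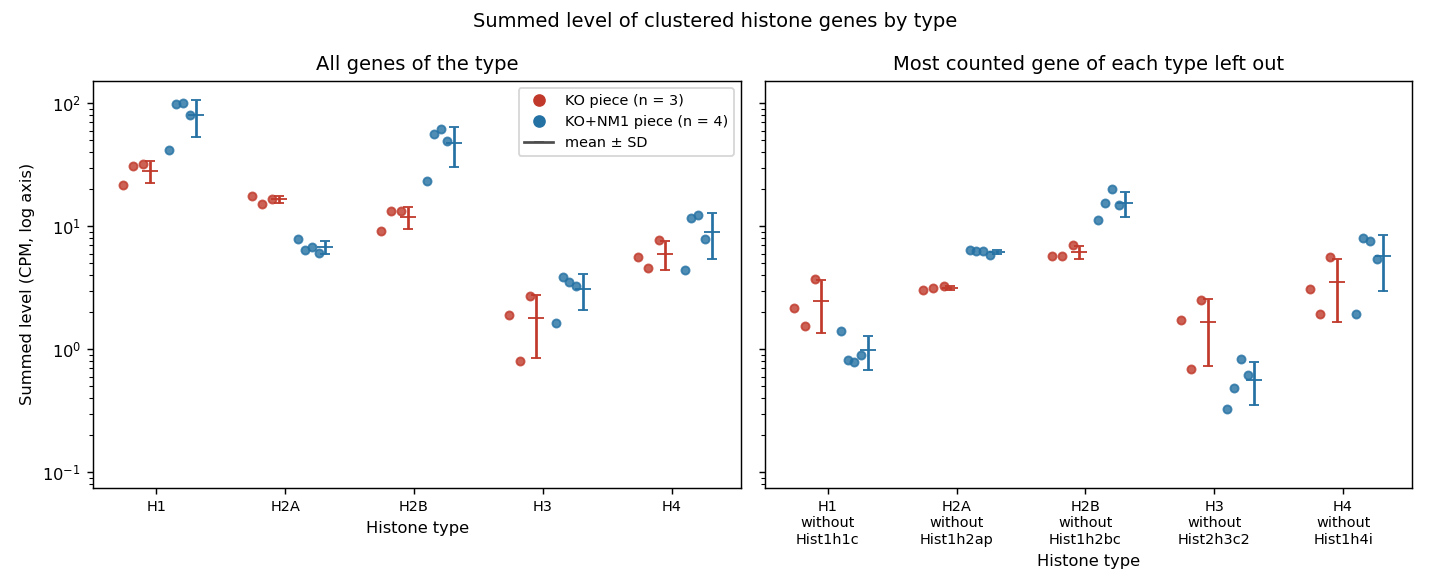
Summed level of the clustered histone genes of each type in each piece (CPM, log axis), with the mean ± SD beside the points, for all genes of the type on the left and without its most counted gene on the right. H1, H2A and H3 change direction between the panels, and H2B does not.

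By cluster, the 52 Hist1 genes summed to 58.0 ± 7.53 CPM in KO and 128 ± 46.3 CPM in KO+NM1, and the groups overlapped, since KO piece 03 was at 65.4 CPM and KO+NM1 piece 01 at 61.9 CPM. The 10 Hist2 genes were lower in every KO piece, at 4.92 ± 0.453 against 13.4 ± 3.30 CPM (2.72-fold). The 2 Hist3 genes, Hist3h2a and Hist3h2ba, were also lower in every KO piece, at 1.31 ± 0.517 against 5.32 ± 1.05 CPM (4.08-fold). Hist4h4, below the filter on low counts, had 8, 4 and 15 counts in KO and 6, 6, 1 and 1 in KO+NM1, and its groups overlapped (ratio of the pooled reads 2.09, 95% exact interval 1.06 to 4.31, counting error only).

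Among the linker histones Hist1h1c, on chromosome 13 (GRCm38, chr13:23738808-23740367, plus strand), had the most reads of any clustered histone gene. It had 583, 839 and 866 counts in the KO pieces and 1113, 2400, 2021 and 1918 in the KO+NM1 pieces, or 25.7 ± 5.45 CPM (SD, n = 3) against 79.1 ± 27.4 CPM (SD, n = 4). Every KO piece was below every KO+NM1 piece, and Hist1h1c fell with a log2 fold change of -1.62 (SE 0.33, adjusted p = 0.0073). The other linker histone genes did not follow it. Hist1h1e had 29, 24 and 46 counts in KO and 32, 13, 14 and 13 in KO+NM1, and its groups overlapped (log2 fold change 0.59, SE 0.42, adjusted p = 0.273). Hist1h1d, named after its values were seen, had 17, 11 and 21 counts against 5, 5, 2 and 9, with no overlap and a log2 fold change of 1.33 that missed the threshold (SE 0.50, adjusted p = 0.0553).

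Hist1h1a and Hist1h1b, linker histones known from dividing cells, were below the filter. Hist1h1a had 17, 2 and 37 counts in KO and 1, 1, 0 and 0 in KO+NM1, a ratio of the pooled reads of 30.4 (95% exact interval 8.02 to 257, counting error only). Hist1h1b had 2, 8 and 10 counts against 1, 1, 0 and 0, a ratio of 10.8 (2.63 to 95.7). In both genes the KO pieces were all higher, though KO piece 02 of Hist1h1a lay at 2 counts. Hist1h1t, the testis linker histone, was at 0 in all pieces.

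H2A held both genes that were higher in KO and 2 that were lower. Hist1h2ap (chr13:21833026-21833507, minus strand) had 440, 351 and 409 counts in KO and 40, 4, 11 and 4 in KO+NM1, or 13.4 ± 1.23 against 0.582 ± 0.610 CPM. All KO pieces were far above the KO+NM1 pieces, of which piece 01 was the highest, and the log2 fold change was 4.51 (SE 0.73, adjusted p = 0.00338). It made up 21.2 ± 4.32% of clustered histone reads in KO and 0.585 ± 0.844% in KO+NM1. Per kilobase of exon Hist1h2ap was the highest clustered histone gene in KO, at a mean of 27.9 CPM per kb against 16.5 for Hist1h1c, while in KO+NM1 it was at 1.21 and Hist1h1c at 50.7.

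Hist1h2ao (chr13:21810465-21810944, plus strand) had 32, 21 and 26 counts in KO and 2, 0, 0 and 1 in KO+NM1, with a ratio of the pooled reads of 28.6 (95% exact interval 9.42 to 141, counting error only) and a fitted log2 fold change of 4.66 (SE 0.87, adjusted p = 0.00226). Without piece 01 of KO+NM1, the highest of its group for both, the log2 fold change was 5.43 for Hist1h2ap and 5.43 for Hist1h2ao. Hist1h2ap and Hist1h2ao are near-identical copies, with all 393 coding bases the same, and only 7.35% and 6.90% of the 75-base windows in their exons occur in no other annotated gene. Reads that fit several copies are dropped by HTSeq-count when the aligner marks them as multiply mapped, so the split of reads between these and other H2A copies is uncertain. The exons of both genes also overlap an annotated antisense transcript, Gm44466 for Hist1h2ap and Gm19658 for Hist1h2ao, and the strand option of the counting was not given in the sources used here.

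Hist2h2ac (chr3:96220361-96220880, minus strand) and Hist3h2a (chr11:58954685-58956830, plus strand) encode H2A too and went the other way. Hist2h2ac had 4, 5 and 4 counts in KO and 12, 36, 28 and 28 in KO+NM1, a log2 fold change of -2.88 (SE 0.52, adjusted p = 0.00426). Hist3h2a had 19, 44 and 42 counts in KO and 158, 111, 97 and 105 in KO+NM1, a log2 fold change of -2.03 (SE 0.36, adjusted p = 0.00438). The groups overlapped for neither gene, and among the KO+NM1 pieces piece 01 was the lowest for Hist2h2ac and the highest for Hist3h2a. The coding sequence of Hist1h2ap shares 358 of 393 aligned bases with that of Hist2h2ac (91.1%) and 348 of 393 with that of Hist3h2a (88.5%). Exons of Hist3h2a overlap those of Trim17 and Gm44313, and exons of Hist2h2ac overlap Gm44492.

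The promoters of these genes are shown because genes of 1 protein type moved in opposite directions. The windows run from 250 bases before to 50 bases after the RefSeq start site (assembly GRCm38.p6), 5′ to 3′ on the strand of the gene, and capitals mark 3 motifs searched on both strands. CCAAT is the box bound by NF-Y and reads ATTGG on the other strand. TATAAA is a TATA box and reads TTTATA there. ATTTGCAT is the octamer known from H2B promoters and reads ATGCAAAT there. Of the 67 clustered histone genes in the reference 62 matched 63 such windows, Hist1h2bm and Hist1h2bh among them. Hist1h2bc, Hist2h2be, Hist1h3a, Hist1h3f and Hist2h4 did not match one.
Hist1h2ap, chr13:21833426-21833725, minus strand: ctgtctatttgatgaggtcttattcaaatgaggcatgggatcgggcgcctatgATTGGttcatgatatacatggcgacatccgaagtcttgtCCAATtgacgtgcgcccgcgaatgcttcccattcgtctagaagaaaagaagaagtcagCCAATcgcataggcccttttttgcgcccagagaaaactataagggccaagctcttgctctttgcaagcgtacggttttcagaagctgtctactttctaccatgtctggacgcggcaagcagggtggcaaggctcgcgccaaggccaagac
Hist2h2ac, chr3:96220831-96221130, minus strand: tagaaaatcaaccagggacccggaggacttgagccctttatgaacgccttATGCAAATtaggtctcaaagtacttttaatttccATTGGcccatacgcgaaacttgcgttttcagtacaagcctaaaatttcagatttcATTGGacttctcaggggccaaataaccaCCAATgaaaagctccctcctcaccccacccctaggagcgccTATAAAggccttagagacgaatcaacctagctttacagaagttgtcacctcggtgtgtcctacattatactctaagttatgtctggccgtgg
Hist3h2a, chr11:58954435-58954734, plus strand: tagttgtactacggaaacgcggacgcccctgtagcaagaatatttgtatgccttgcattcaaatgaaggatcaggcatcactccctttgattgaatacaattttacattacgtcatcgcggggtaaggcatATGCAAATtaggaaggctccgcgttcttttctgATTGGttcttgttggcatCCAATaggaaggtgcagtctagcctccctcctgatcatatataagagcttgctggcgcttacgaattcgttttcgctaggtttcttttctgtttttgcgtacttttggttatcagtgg
Hist1h1c, chr13:23738557-23738856, plus strand: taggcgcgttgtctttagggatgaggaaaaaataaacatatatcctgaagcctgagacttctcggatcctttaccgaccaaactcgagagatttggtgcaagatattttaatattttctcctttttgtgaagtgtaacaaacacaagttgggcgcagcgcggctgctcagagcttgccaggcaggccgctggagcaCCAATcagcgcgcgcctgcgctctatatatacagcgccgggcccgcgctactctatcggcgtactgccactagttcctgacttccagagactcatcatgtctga

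All 4 windows held CCAAT, Hist2h2ac and Hist3h2a also held the octamer, and Hist2h2ac alone held TATAAA. The window of Hist1h2ap contained neither TATAAA nor the octamer. A run of 200 bases was shared without a mismatch by the windows of Hist1h2ap and Hist1h2ao, whereas the longest run that Hist1h2ap shared with Hist2h2ac was 8 bases and with Hist3h2a 10 bases. The run of 200 goes from the first base of the Hist1h2ap window to the last of the Hist1h2ao window, which are set on different RefSeq starts. Bases beyond it were not compared. Over all clustered histone windows CCAAT was found in 85.7%, TATAAA in 55.6% and ATTTGCAT in 22.2%, against 37.4%, 13.6% and 1.74% of all 32851 windows of the same length. By type, CCAAT was in all windows of H1, H2A, H2B and H3 and in 25% of those of H4, and the octamer was in 38.9% of H2A and 41.2% of H2B windows and in none of the other types. A match describes letters and does not show binding.

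All 3 tested H2B genes fell, and none rose. Hist1h2bc (chr13:23684199-23692908, plus strand), the most counted of them, had 104, 220 and 191 counts in KO and 325, 999, 842 and 840 in KO+NM1, or 5.80 ± 2.13 against 32.1 ± 13.9 CPM. No KO piece reached the lowest KO+NM1 piece, and the log2 fold change was -2.47 (SE 0.47, adjusted p = 0.00667). Its share of clustered histone reads was 8.87 ± 2.81% in KO and 21.01 ± 4.05% in KO+NM1. Its annotated transcript is spliced and ends 742 bases after the stop codon.

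Hist1h2be (chr13:23583670-23621124, minus strand), whose coding sequence is the same as that of Hist1h2bc in 375 of 381 bases, had 14, 22 and 29 counts in KO and 46, 147, 112 and 131 in KO+NM1 (log2 fold change -2.66, SE 0.50, adjusted p = 0.00638). Its exons overlap those of Hist1h1e and of Gm11398. Hist2h2be (chr3:96221119-96223738, plus strand), whose annotated transcript runs 2192 bases past the stop and shares no 75-base window with another gene, changed least, with 128, 124 and 135 counts against 221, 206, 272 and 196 (log2 fold change -1.12, SE 0.26, adjusted p = 0.0118). The groups overlapped for neither of these genes. With library size alone as the scaling, or without piece 03 of KO+NM1, Hist2h2be came to -0.91 and -0.93 and so under the 2-fold threshold. Hist1h2bb, below the filter, had 3, 4 and 10 counts in KO and 6, 8, 8 and 10 in KO+NM1, and its groups overlapped.

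The H2A and H2B genes often lie head to head, and 24 of the clustered histone genes had such a partner. Hist2h2ac and Hist2h2be, whose starts are 238 bases apart, were both lower in KO. Of the pair Hist1h2bc and Hist1h2ac, 250 bases apart, Hist1h2ac had 4, 0 and 0 counts in KO and 0, 2, 0 and 1 in KO+NM1, where Hist1h2bc had 104 to 999. Hist1h2br, 235 bases from Hist1h2ap, had 0, 2 and 3 counts in KO and 1, 2, 6 and 8 in KO+NM1. Hist1h2ac and Hist1h2br were named after their values were seen.

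In H3 a single gene passed the filter. Hist2h3c2 (chr3:96238108-96239127, minus strand) had 5, 3 and 5 counts in KO and 36, 84, 54 and 65 in KO+NM1, or 0.145 ± 0.0355 against 2.51 ± 0.876 CPM. All KO pieces were at about the level of the floor, and the log2 fold change was -4.07 (SE 0.45, adjusted p = 0.000946), the strongest fall among the 15 genes. Of the H3 genes below the filter, Hist1h3h had 6, 6 and 8 counts in KO and 0 in each KO+NM1 piece, at least 7.23-fold higher in KO against a floor of 3 counts over the group. Hist1h3i had 9, 4 and 4 counts against 2, 2, 1 and 3 with no overlap, but its interval for the ratio of 2.30 ran from 0.942 to 6.17. Hist1h3e had 4, 2 and 23 counts against 1, 3, 1 and 4, so that its ratio of 3.49 (1.61 to 8.39) rests on KO piece 03.

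Of 4 tested H4 genes only Hist1h4h (chr13:23531050-23531519, plus strand) was called. It had 16, 10 and 32 counts in KO and 18, 164, 114 and 114 in KO+NM1, and piece 01 of KO+NM1 fell among the KO pieces, so the groups overlapped. The log2 fold change was -2.76 (SE 0.76, adjusted p = 0.028). The call was lost when any of KO piece 01, KO piece 02 or KO+NM1 pieces 02, 03 and 04 was left out, with adjusted p from 0.0559 to 0.0889, and without KO piece 03 the log2 fold change was -3.43.

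Hist1h4i (chr13:22040636-22041362, minus strand), the most counted H4 gene, had 77, 77 and 62 counts in KO and 68, 86, 96 and 60 in KO+NM1, with overlapping groups (log2 fold change -0.44, SE 0.33, adjusted p = 0.308). Hist1h4k had 14, 6 and 24 counts against 4, 2, 12 and 0 and also overlapped (log2 fold change 1.29, SE 1.04, adjusted p = 0.325, and 0.63 without KO piece 03). Hist1h4d, also named after its values were seen, did not overlap and was at a log2 fold change of 1.36 (SE 0.51, adjusted p = 0.0555). Hist1h4f, below the filter, had 7, 3 and 22 counts in KO and 0, 1, 1 and 1 in KO+NM1, a ratio of 11.6 (3.62 to 59.0). The coding sequences of the 4 tested H4 genes are alike in 288 to 299 of 312 bases.

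The 50 genes below the filter had few reads, yet their sum was higher in every KO piece. Together they had 187, 96 and 280 counts in KO and 83, 75, 66 and 76 in KO+NM1, or 6.26 ± 2.95 against 3.11 ± 0.105 CPM (2.01-fold). The groups were only just apart, with KO piece 02 at 3.33 CPM and KO+NM1 piece 03 at 3.26 CPM. Of these, 8 were at 0 throughout, and the mean of the other 42 was higher in KO for 31 (73.8%) and lower for 11 (26.2%), against 48.6% and 51.4% of all 12007 genes with reads below the filter. The exact 95% interval of the pooled ratio, which covers counting error only, lay above 1 for 12 of the 42 (28.6%) and below 1 for 2, Hist3h2ba and Hist1h2br (4.76%), against 7.89% and 11.1% of all such genes. The genes compared were not matched for their number of reads, and no test was made. Hist3h2ba had 11 counts in KO and 50 in KO+NM1. By type the sums were higher in KO with no overlap for the 3 H1 genes and the 14 H2A genes and overlapped for H2B, H3 and H4.

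Without the filter on low counts, 57 clustered histone genes entered the edgeR test, and 5 were higher and 8 lower in KO, against 9.36% and 12.7% of all 28894 genes. Both numbers were near these shares. The 3 genes gained were Hist1h1a (log2 fold change 4.56, adjusted p = 0.0234), Hist1h3h (5.55, adjusted p = 0.0178) and Hist1h4f (3.22, adjusted p = 0.0453). The fitted value of Hist1h3h depends on the prior count, since all its KO+NM1 pieces were at 0.

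At 0 in all 7 pieces were Hist1h1t, Hist1h2aa, Hist1h2an, Hist2h2aa1, Hist2h2aa2, Hist2h2bb, Hist2h3b and Hist2h3c1. For the 5 Hist2 genes among them each 75-base window occurs in another annotated gene too, which can be a copy or a gene annotated over the same exons. Hist2h2aa2 shared most windows with Hist2h2aa1. All 488 exon bases of Hist2h3b are overlapped by Gm20628 on the opposite strand, and all 1825 of Hist2h3c1 by Gm20634 on the same strand. Reads on these genes may have been dropped, so a 0 does not show that they were not expressed. Of the windows of Hist1h2an 15.4% were its own. Hist1h1t with 100% and Hist1h2aa with 82.6% could have been counted, and both are known from testis.

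Sums were also taken by the annotated end of the transcript. The 23 genes annotated with over 200 bases after the stop codon summed to 44.6 ± 8.79 CPM in KO and 139 ± 45.4 CPM in KO+NM1, 3.12-fold lower in KO with no overlap. Without Hist1h1c the other 22 still did not overlap, at 18.9 ± 3.48 against 60.0 ± 18.1 CPM. The 42 genes with up to 200 bases summed to 20.0 ± 3.50 against 7.56 ± 2.60 CPM, 2.64-fold higher in KO with no overlap, but without Hist1h2ap the other 41 were at 6.54 ± 2.58 against 6.98 ± 3.13 CPM and overlapped. Of the 8 genes called lower 6 were annotated with over 200 bases after the stop, with 93 to 2192 bases among the 8. The 2 genes called higher had 57 and 85 bases. Of the 5 tested genes that were not called, 4 had over 200 bases, and 3 of these, Hist1h1d, Hist1h1e and Hist1h4d, had positive values. The division at 200 bases is the window of the stem-loop search, and no test was made on it.

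**Figure D4:**
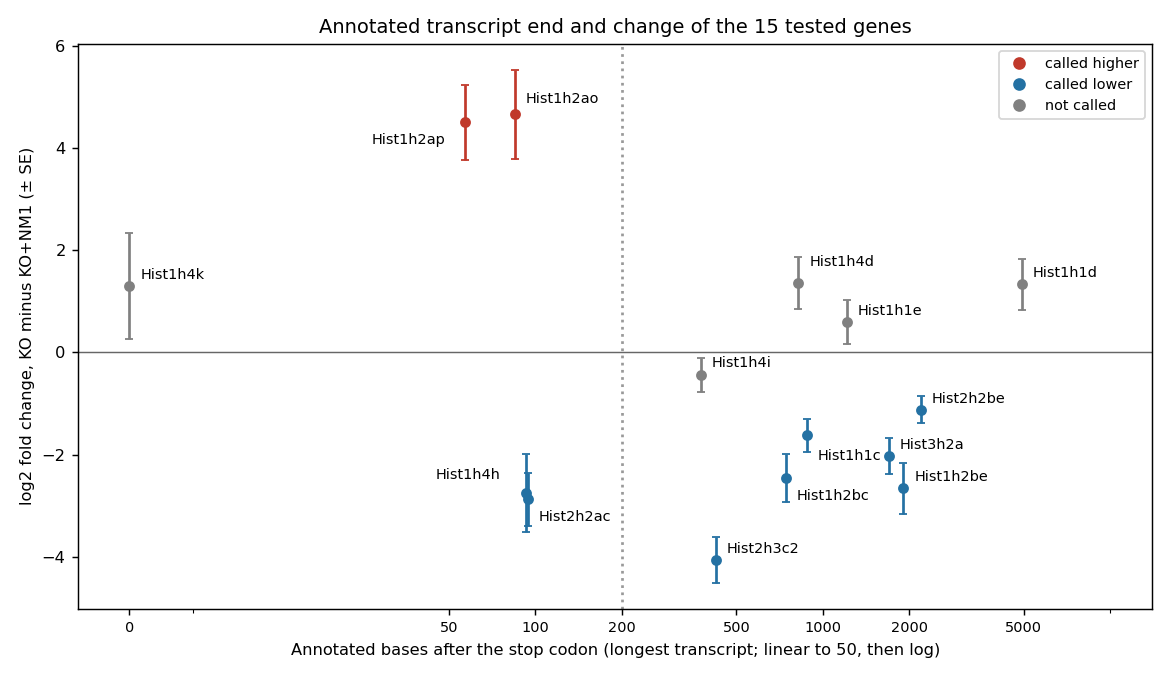
Annotated bases between the stop codon and the end of the longest transcript, linear to 50 bases and logarithmic beyond, against the log2 fold change ± SE of the 15 tested clustered histone genes, with a dotted line at 200 bases. Hist1h2ap and Hist1h2ao lie at the short end with high values, Hist1h4h and Hist2h2ac at the short end with low ones, and the other 6 genes called lower lie right of the line.

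In each of 4 lists of genes for DNA replication and histone supply more genes were called higher in KO than lower, though in 2 of the lists most genes were not called, and the difference from the clustered histone genes was not tested. Over all 16887 genes tested 17.1% were higher and 20.3% lower, and 30.5% did not overlap with KO higher. Of 28 genes of S-phase DNA replication 27 were higher and none lower, with a median log2 fold change of 3.07 beside -0.0017 over all genes tested, and in all 28 every KO piece was above every KO+NM1 piece. The largest were Cdc6, which licenses origins (88.5 ± 7.80 against 2.17 ± 0.948 CPM, log2 fold change 5.35, SE 0.33), and Pole, the leading-strand polymerase (120.2 ± 11.01 against 4.57 ± 3.57 CPM, 4.71, SE 0.51). The exception was Rpa3, at 0.74 (adjusted p = 0.0069), which was under the 2-fold threshold.

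The next 2 lists also stand beside 17.1% higher and 20.3% lower over all genes tested. Of 21 genes of histone gene transcription and histone mRNA processing 9 were higher in KO and none lower, with a median of 0.87. The largest were Eri1, an exonuclease that trims histone mRNA ends, at 122 ± 14.7 against 23.4 ± 12.1 CPM (log2 fold change 2.38, SE 0.36, adjusted p = 0.002), and Cstf2, a cleavage factor, at 93.6 ± 21.8 against 26.4 ± 7.92 CPM (1.82, SE 0.26, adjusted p = 0.0017). Npat, which switches the clustered genes on, was at 42.3 ± 5.43 against 13.1 ± 2.39 CPM (1.69, SE 0.19), and Slbp, which binds the stem-loops printed above, at 117 ± 5.03 against 46.4 ± 17.1 CPM (1.33, SE 0.26). Npat and Slbp were named for their roles after their values were seen. Past the adjusted p but under 2-fold, Cpsf3 (-0.80, adjusted p = 0.0125) and Lsm10 (-0.68, adjusted p = 0.0202) were lower in every KO piece. Cpsf2, Ncbp1, Exosc10 and Sympk were likewise past it and under 2-fold, but higher. Of the 21 genes 14 did not overlap with KO higher and 2 with KO lower, against 30.5% and 26.4% of all genes tested. Of 23 histone chaperone and acetyltransferase genes 13 were higher and none lower, with a median of 1.30, led by Chaf1a (4.22, SE 0.27) and Asf1b (3.98, SE 0.53), which bring new H3 and H4 to copied DNA.

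The replacement histone variants are encoded outside the clusters and can be made outside S phase, and 5 of 11 were higher in KO and none lower. Over all genes tested the shares were 17.1% and 20.3%. Cenpa, the H3 of centromeres, was at 128 ± 7.77 CPM in KO and 11.2 ± 9.55 CPM in KO+NM1 (log2 fold change 3.51, SE 0.55, adjusted p = 0.0028, and 4.19 without piece 01 of KO+NM1), and H2afz at 163 ± 4.25 against 48.1 ± 16.2 CPM (1.76, SE 0.24, adjusted p = 0.0015). H2afx, which is phosphorylated at DNA breaks, H1fx, a linker histone, and H2afy2, a macroH2A, were at 1.72, 1.75 and 1.18. The call of H1fx was lost without any 1 of the KO pieces (adjusted p = 0.0505 to 0.0662), and that of H2afy2 without any 1 of the KO pieces or without piece 02 or 03 of KO+NM1 (0.0578 to 0.125), while without piece 01 of KO+NM1 H2afy2 was at 0.80 and so under 2-fold. Past the adjusted p but under 2-fold were H2afj, at -0.99 (SE 0.14, adjusted p = 0.0016), and H3f3b, one of the genes for the H3 variant made outside S phase, at 0.60 (SE 0.21, adjusted p = 0.0478, but 0.0913 or more without any 1 piece other than KO+NM1 piece 01). H2afy (0.62), H3f3a (-0.40), H2afv (0.36) and H1f0 (0.59) did not pass the adjusted p. In the median the list was at 0.62. Its most abundant gene, H3f3b, was at 788 ± 83.7 CPM in KO and 520 ± 105 CPM in KO+NM1, above the counted sum of all clustered histone genes in both groups. That sum can lack reads that fit several copies. Poly(A) selection, if it was used, would also catch mRNAs that end at the stem-loop poorly. The values therefore do not rank the amounts of mRNA.

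**Figure D5:**
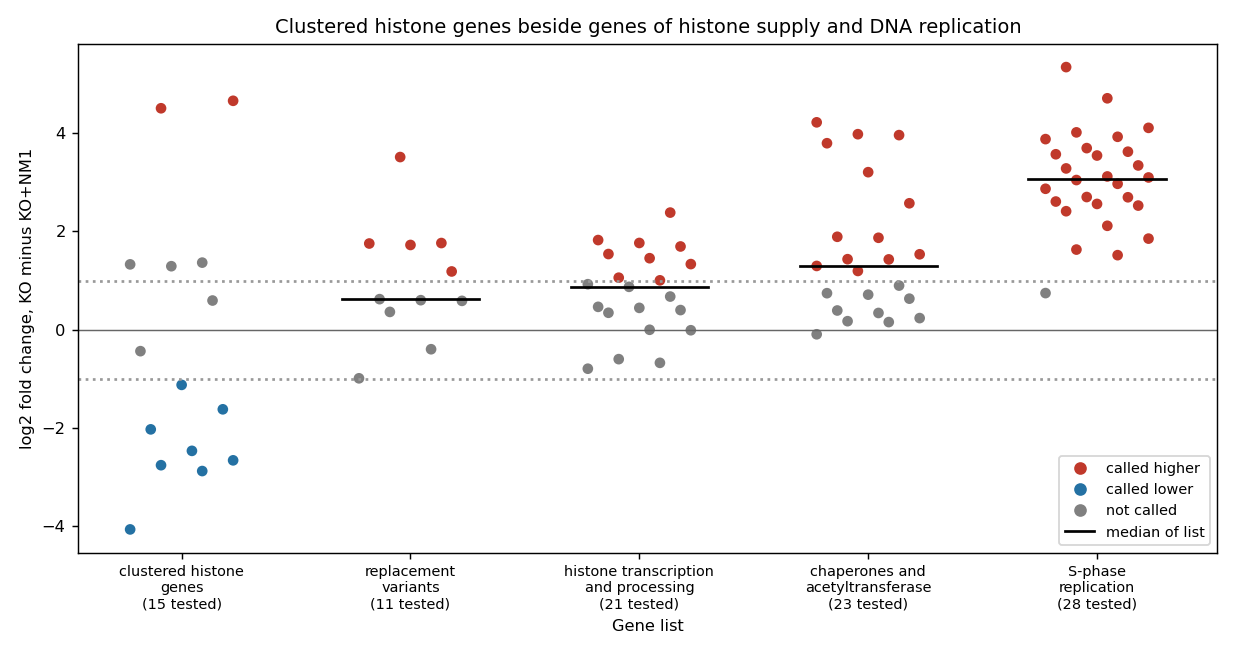
The log2 fold changes, KO minus KO+NM1, of the tested clustered histone genes beside those of 4 lists of genes for histone supply and DNA replication, with the median of each list as a bar and dotted lines at 2-fold. Points above the upper line are mostly called higher in the 4 lists, while the clustered histone genes lie on both sides.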

How the data were processed

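The data are raw read counts per gene of 7 RNA-seq libraries, each from 1 tumor piece. Per the labels and the methods, the authors used Trimmomatic 0.36 for trimming, HISAT2 2.0.4 for alignment of the read pairs to GRCm38, SAMtools 0.1.19 for sorting and HTSeq-count for the counts. The deposited counts are whole numbers for 46603 Ensembl genes. The annotation release, the strand option, the read length and the selection of RNA were not given in the sources used here.

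Symbols came from GENCODE M21, which gave 46005 genes a symbol. The clustered histone genes were found by symbol and biotype, and 3 pseudogenes were left out. The genes, the lists and the tests were chosen with earlier results of these data known. In R 4.3.3, edgeR 4.0.16 was used to filter the genes (filterByExpr, minimum count 10), to scale the libraries (TMM) and to run the quasi-likelihood test of KO against KO+NM1. The p-values of the 16887 genes that remained were adjusted by Benjamini-Hochberg. Called genes had an adjusted p under 0.05 together with a 2-fold difference, the thresholds of the methods, which do not name the test. Standard errors were taken from the fit with its moderated dispersion. CPM are counts scaled to the TMM-adjusted library size. The comparison of pieces of 1 group by a chi-square of their counts per degree of freedom gave 35.2 or more, far from a repeated library. The fit was tested on simulated data.

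Named were, in each type, the 4 genes with the highest mean level per kb and the largest called rise and fall, tested genes with a negative fold change, genes at 0 in all pieces, the 2 largest called rises and falls of each list, all replacement variants and Myo1c. Ratios of pooled reads have exact binomial intervals at 95%, which cover counting error only. Sequences came from GENCODE M21 transcripts and RefSeq promoter windows (GRCm38.p6). The 75-base windows of each gene's exons were compared with all annotated transcripts on both strands. Letters shared with copies and with genes annotated over the same exons both count as shared. No genome sequence or protein table was used here.

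The alternatives were DESeq2 size factors, upper-quartile or library-size scaling, mitochondrial genes left out of the library size, no filter or at least 10 counts in every library, the Wald test of DESeq2 1.42.0, voom of limma 3.58.1 with sample quality weights, the adjusted p alone, the piece number as a block, and the fit without each library. The numbers of the pieces were not taken as pairs in the main fit, since the labels give no shared source. The deviations of same-numbered pieces correlated at 0.0802, 0.102 and -0.0165, and those of differently numbered pieces at -0.120 to 0.109.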

Additional observations from a re-analysis of the deposited data

Results flagged for a closer look

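In the group of 4 KO+NM1 pieces, 46 levels of named genes and summed levels were examined for 1 piece apart from the others, by the gap to the nearest piece as a share of the whole range. The gap was past the 95% critical value of Dixon for 9 of them, and 8 of the 9 concern piece 01. About 2.30 would be reached by chance (1 in 20) if the levels were independent. All 46 come from the same 4 pieces and are not independent, so whether 9 is an excess was not tested. Among the clustered histone genes these were Hist1h2be, at 1.68 CPM in piece 01 and 5.38 to 5.97 in the others (gap 0.862), and Hist2h2be, the one case in piece 03, at 13.4 CPM against 8.05 to 8.37 (0.94). Piece 01 was high for H2afz, at 72.3 CPM against 38.3 to 41.6 (0.903), for H2afy, at 247 against 89.4 to 97.8 (0.947), and for H3f3a, at 173 against 77.5 to 93.1 (0.836). It was also high for Cenpa, at 25.5 CPM against 5.16 to 7.10 (0.904), for Eri1, at 41.3 against 15.6 to 19.3 (0.858), and for Pole, at 9.87 against 2.12 to 3.16 (0.866). H1f0 was low in piece 01, at 101 CPM against 214 to 235 (0.845). Piece 01 is also the piece with the B and plasma cell markers at 4261 CPM, and their part in these values was not tested. Groups of 3 pieces were not examined in this way.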

How the results depend on the processing

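The log2 ratio of the summed clustered histone reads was -1.18 and kept its direction under all 13 other settings, from -1.54 without genes that overlap another gene to -0.77 without the most counted gene of each type, and from -1.52 to -1.07 with each library left out in turn. The number of clustered histone genes lower in KO was 8 and went from 6 to 8, and the number higher was 2, but 5 without the filter on low counts, 6 with voom and 0 with at least 10 counts in every library, where Hist1h2ap and Hist1h2ao were no longer tested. With voom the 4 further genes were Hist1h1d, Hist1h1e, Hist1h4d and Hist1h4k. With each library left out the genes higher were 2 to 3 and those lower 6 to 8. With the piece number as a replicate block 2 genes were higher and 6 lower, and the adjusted p of Hist1h4h became 0.123 and of Hist2h2be 0.0532. Scaling moved the median of all genes by -0.10 with DESeq2 size factors, by -0.16 with the upper quartile and by 0.17 with library size alone. With voom the log2 fold change was 5.81 for Hist1h2ap, 4.38 for Cenpa, 4.60 for Asf1b and 5.30 for Pole. Hist2h2be was lost and Hist1h4d gained under library size alone. Without the most counted gene, the log2 ratio of the H1 sum turned from -1.51 to 1.35, of H2A from 1.29 to -0.98 and of H3 from -0.78 to 1.54, and that of H2B moved from -1.99 to -1.33. With the pseudogene Hist1h2al added, the log2 ratio of the H2A sum turned to -0.41. The number of replacement variants higher in KO was 5, and 3 with the replicate block, and 3 to 5 with each library left out. H2afj, just under 2-fold, made the number lower 1 instead of 0 with DESeq2 size factors, the upper quartile, no filter, at least 10 counts in every library, the DESeq2 Wald test and the replicate block, and 0 to 1 with each library left out. The counts of the other 3 lists stayed within 1.5 times in all settings.

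Few reads limit these results: 50 of 65 genes had too few counts for the test, and reads that fit several copies are lost. The cause of the changes with the setting was not tested.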

Other observations

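Hist1h2al, a processed pseudogene on chromosome 13 (GRCm38, chr13:51202727-51203065, minus strand) that bears a histone symbol but was left out because it is not annotated as protein-coding, had more reads than most clustered histone genes. It had 38, 46 and 42 counts in the KO pieces and 176, 583, 420 and 433 in the KO+NM1 pieces, or 1.42 ± 0.168 against 17.1 ± 7.55 CPM, with no overlap (log2 fold change -3.59, SE 0.43, adjusted p = 0.00146). With it added, the H2A sum turned from higher to lower in KO, at 17.99 ± 1.03 against 23.9 ± 6.92 CPM, and the groups overlapped, with piece 01 of KO+NM1 at 14.3 CPM below all KO pieces. The other pseudogenes, Hist1h2aj and Hist3h2bb-ps, had 0 to 1 and 0 to 4 counts per piece.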
